A study of Sus scrofa with 25 samples.

Results

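Muscle of 16 pigs whose feed was supplemented with vitamin D3 was compared with muscle of 8 pigs fed without it, with both doses taken as a single group. The 24 samples were chosen from 25 by diet and by a reading of the counts. The control pigs had 0 IU of vitamin D3 per kg of feed, 8 of the supplemented pigs had 5000 IU/kg and the other 8 had 10000 IU/kg. The feeds were otherwise equal in protein and energy and were given for 90 days from day 85 of life, with the pigs of a litter divided over the diets. All pigs had a Polish Large White dam and a Landrace sire, each gave 1 sample, and samples are named here by the animal number in the labels. Which muscle was sampled, and each animal's sex and litter, the sources used here do not give. A sample at 10000 IU/kg, animal 27, was left out.

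Animal 27 was selected for removal on 2 transcripts of fat cells, and these values are a description of that choice. ADIPOQ (ENSSSCG00000039103), the fat-cell hormone adiponectin, had 15866 counts in animal 27. In the 24 samples kept it had 5 to 538 counts, with the highest in animal 25 and the next at 441. The medians were 87.5 counts in control and 86.5 counts in supplemented muscle, so the kept groups overlapped. TRARG1 (ENSSSCG00000017801), a regulator of glucose transporter traffic in fat, had 60164 counts in animal 27 and 2 to 209 counts in the others, with the next at 115. Its medians were 31.5 counts in control and 23 counts in supplemented muscle.

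Vitamin D3 from feed or skin is hydroxylated in the liver by CYP2R1 and CYP27A1 and in the kidney by CYP27B1, and CYP24A1 breaks the active hormone down. The hormone travels on the binding protein GC, binds the vitamin D receptor VDR, and VDR acts on genes as a partner of a retinoid X receptor (RXRA, RXRB or RXRG). In muscle the hormone is known for effects on calcium handling, fibre growth and mitochondrial function, while adult muscle holds little VDR.

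Libraries were read from the 3' end of mRNA, so a count does not grow with transcript length. Gene counts ran from 6403176 to 11222956 in the controls and from 3310507 to 15177976 in the supplemented samples. Reads assigned to genes made up 58.4% ± 8.76 (SD, n = 8) of the reads in control and 52.7% ± 12.9 (SD, n = 16) in supplemented samples. The means differed by -5.70 percentage points (exact permutation test of the difference of means, two-sided, p = 0.276, adjusted p = 0.760 over 7 library measures). The other 6 measures had adjusted p-values of 0.760 to 0.958 in exact permutation tests. In 4 supplemented samples the share lay under the lowest control share of 45.1%, at 24.9% in animal 18, 28.4% in animal 2, 38.2% in animal 7 and 43.8% in animal 11. Animals 18, 2 and 7 were also least like the others, with a median Pearson r of 0.737 to 0.775 across genes against 0.806 to 0.894 in the rest. All 7 skeletal muscle markers found had counts in every sample. ACTA1, the skeletal actin, held 11.3% ± 5.32 (SD, n = 8) of control counts and 12.2% ± 5.62 (SD, n = 16) of supplemented counts.

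Pooling the doses asks how muscle transcripts differ with vitamin D3 in the feed, with the larger group that 16 pigs give. No gene passed the threshold. With edgeR, 0 of 10876 genes tested (0%) had an adjusted p of at most 0.05, and the smallest adjusted p was 0.978. An unadjusted p under 0.05 was found for 349 genes (3.21%), of which 245 (2.25%) were higher and 104 (0.956%) lower in the supplemented group. An even spread of p-values would put 543.8 genes under 0.05. DESeq2 and voom also called 0 genes, with 484 and 530 at an unadjusted p under 0.05, and the smallest adjusted p in DESeq2 was 0.0611, for IFNGR2.

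The precision of the comparison sets what it could show. The log2 fold change of a gene had a median SE of 0.34 and a 95% interval of 0.70 to either side at the median. For 5363 genes (49.3%) the whole interval lay within a 2-fold change in either direction. The fitted fold change was at least 2 in size for 333 genes, 237 higher and 96 lower, and none of these passed the test. Over all genes tested, 52.9% had a fold change above 0 and 47.1% below 0, with a median log2 fold change of 0.03. The SD of log2 counts per 1000000 gene counts (CPM) was larger in the supplemented than in the control group for 71.8% of genes, with medians of 0.87 and 0.69. Without the 4 low-share samples it was larger in 49.8% of genes, with a median of 0.693 in the supplemented group. These 4 were picked for a share under the lowest control, so only the supplemented group could lose samples. In 0 genes (0%) did the values of the groups not overlap.

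**Figure D1:**
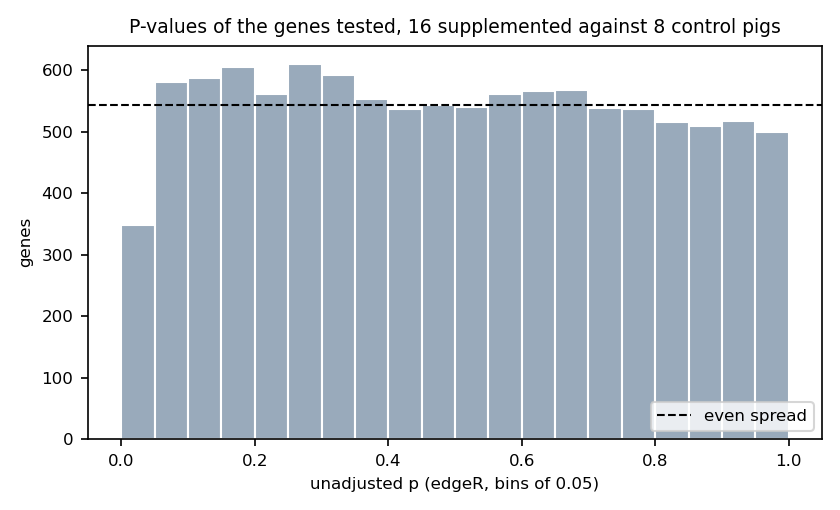
Number of genes by unadjusted p of edgeR (x axis, bins of 0.05) for the 10876 genes tested, 16 supplemented against 8 control pigs. The lowest bin holds 349 genes, under the 543.8 of an even spread (dashed line).

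The doses were then compared within the pool. Between 10000 and 5000 IU/kg, edgeR called 0 genes (0%; smallest adjusted p = 1.00), and 220 genes (2.02%) had an unadjusted p under 0.05, 95 higher and 125 lower at 10000 IU/kg. DESeq2 called 0 genes as well. A joint test of both doses against control called 0 genes (0%). The dose difference had a median SE of 0.40. Values at each dose stand side by side below, and both doses were set against the same 8 controls.

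The genes with the smallest p among those higher in supplemented muscle had varied roles, and 4 are described sample by sample. IFNGR2 (ENSSSCG00000034378) is the signalling chain of the interferon-gamma receptor. It had 2.34 to 7.62 CPM in the controls, with a median of 3.82, and 4.21 to 36.3 CPM in the supplemented group, with a median of 11.3. Of 16 supplemented samples, 12 lay above the highest control, 5 at 5000 and 7 at 10000 IU/kg, and the other 4 overlapped the controls. Its log2 fold change was 1.60 ± 0.35 (SE, 16 against 8), a 3.04-fold higher level, with 1.17 ± 0.38 at 5000 and 1.93 ± 0.38 at 10000 IU/kg and an adjusted p of 0.978 in edgeR. All 4 samples with low shares of assigned reads were above every control, and without these 4 the log2 fold change was 1.25 ± 0.32.

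GZMA (ENSSSCG00000016903) encodes granzyme A, a protease of cytotoxic lymphocyte granules. Control samples had 0 to 1.85 CPM with a median of 0.593, and supplemented samples 0.645 to 12.9 CPM with a median of 2.37. The level was above the highest control in 13 of 16 samples, which no gene tested exceeded and only LCORL, named after its values were seen, matched, and the other 3 samples overlapped the controls. The log2 fold change was 2.37 ± 0.62, with 2.73 ± 0.70 at 5000 and 1.90 ± 0.70 at 10000 IU/kg, an adjusted p of 0.978 in edgeR and of 0.0958 in DESeq2. It was 2.11 ± 0.62 without the 4 low-share samples. These are low counts, and a second identifier with the symbol GZMA (ENSSSCG00000016902) stood at 1.15 ± 0.80, and how reads were shared between them is not known. The list of cytotoxic lymphocyte genes that holds both identifiers had 7 of 12 above 0 and a median of 0.06.

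CCN2 (ENSSSCG00000004192) encodes a matricellular growth factor that connective tissue and stretched muscle release. Its level was 8.39 to 28.5 CPM in control (median 16.0) and 11.1 to 115 CPM in supplemented muscle (median 26.7). The groups overlapped, with 7 of 16 supplemented samples above the highest control, and the highest value was in animal 24 at 5000 IU/kg. The log2 fold change was 1.13 ± 0.31, with 1.31 ± 0.36 at 5000 and 0.92 ± 0.36 at 10000 IU/kg, and 0.89 without animal 24. Without the low-share samples it was 1.27 ± 0.31.

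TSPAN12 (ENSSSCG00000016620) is a tetraspanin that takes part in Norrin signalling through a frizzled receptor in vessels. Controls had 0 to 2.98 CPM (median 1.09) and supplemented samples 0 to 10.8 CPM (median 5.36). Of 16 supplemented samples 12 were above every control, 5 at 5000 and 7 at 10000 IU/kg, while the lowest, animal 6, was at 0. The log2 fold change was 2.20 ± 0.59, and 2.00 ± 0.61 without the low-share samples.

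**Figure D2:**
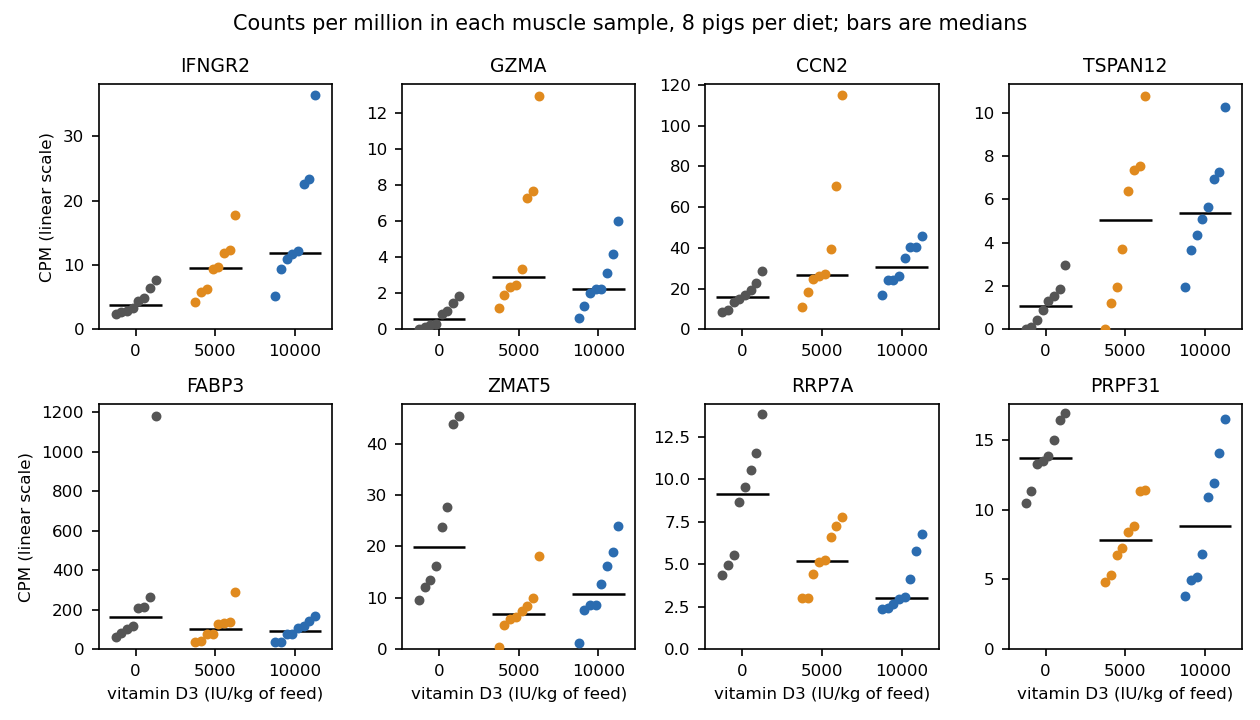
CPM on a linear scale (y axis) in each of 24 muscle samples by vitamin D3 dose (x axis; 8 pigs a dose), with bars at the medians, for 4 genes higher and 4 genes lower in the supplemented group. In IFNGR2, GZMA and TSPAN12 12 or 13 of 16 supplemented samples lie above the highest control, while in FABP3 a single control stands at 1184 CPM.

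The other 8 genes of the 12 with the smallest p above 0 stood at log2 fold changes of 0.77 to 1.35. SLC19A2 (ENSSSCG00000006290), a thiamine transporter, stood at 1.08 ± 0.34, NOCT (ENSSSCG00000024596), the rhythmically expressed nocturnin, at 0.91 ± 0.29, and TRIB1 (ENSSSCG00000038500), a pseudokinase that steers protein degradation, at 0.94 ± 0.30. These 3 held without the 4 low-share samples, at 1.02, 0.77 and 0.93. For the other 5 genes more of the value rested on those samples. INO80D (ENSSSCG00000016125), a subunit of the INO80 remodeller, was at 1.35 ± 0.42 and at 0.64 ± 0.35 without those 4. ARID1A (ENSSSCG00000003559), a subunit of the SWI/SNF remodeller, had 0.77 ± 0.25 with and 0.49 ± 0.22 without, and MAGI1 (ENSSSCG00000011497), a scaffold of cell junctions, had 1.06 ± 0.32 and 0.64 ± 0.29. DNAJC25 (ENSSSCG00000005460), a co-chaperone with a J domain, stood at 1.15 ± 0.35 and at 0.67 ± 0.32 without them. CLCC1 (ENSSSCG00000006841), a chloride channel of the endoplasmic reticulum, stood at 0.81 ± 0.25 and at 0.59 ± 0.22. All 4 low-share samples lay above the highest control in INO80D, ARID1A, MAGI1 and DNAJC25, and 3 of them did in CLCC1.

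Those with the smallest p among genes lower in supplemented muscle were likewise of varied roles. FABP3 (ENSSSCG00000036883), the fatty acid-binding protein of heart and muscle, had 61.9 to 1184 CPM in control (median 162) and 34.3 to 289 CPM in supplemented muscle (median 91.9). The groups overlapped in most samples, and 4 of 16 supplemented samples lay under the lowest control, of which 3 were low-share samples. The log2 fold change was -1.41 ± 0.43, with -1.28 ± 0.50 at 5000 and -1.55 ± 0.50 at 10000 IU/kg. Without the low-share samples it was -1.16 ± 0.44. A single control, animal 16, held the 1184 CPM, the next control had 267 CPM, and without animal 16 the log2 fold change was -0.52.

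ZMAT5 (ENSSSCG00000024279), a zinc finger protein of the minor spliceosome, had 9.55 to 45.4 CPM in control (median 19.9) and 0.457 to 24.0 CPM in supplemented muscle (median 8.45). Of 16 supplemented samples 10 lay under the lowest control, 6 at 5000 and 4 at 10000 IU/kg. The log2 fold change was -1.27 ± 0.40, and -1.11 ± 0.37 without the low-share samples. PRPF31 (ENSSSCG00000003263), a splicing factor, had 10.5 to 16.9 CPM in control (median 13.7) and 3.80 to 16.6 CPM in supplemented muscle (median 7.82). Again 10 of 16 samples lay under every control, and the log2 fold change was -0.68 ± 0.27 and, without the low-share samples, -0.57 ± 0.25. In both genes every control was above the supplemented median.

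RRP7A (ENSSSCG00000033983) and WDR18 (ENSSSCG00000013423) act in the processing of ribosomal RNA. RRP7A had 4.39 to 13.9 CPM in control (median 9.12) and 2.36 to 7.79 CPM in supplemented muscle (median 4.27), with 8 of 16 samples under the lowest control, 2 at 5000 and 6 at 10000 IU/kg. Its log2 fold change was -0.92 ± 0.33, and -0.91 ± 0.32 without the low-share samples. WDR18 stood at -0.74 ± 0.29, with 5 of 16 samples under the lowest control.

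The remaining 7 of the 12 genes below 0 have varied roles, and 2 of them rested on single controls, as FABP3 did. ISG15 (ENSSSCG00000040575), a ubiquitin-like protein that interferon induces, stood at -1.59 ± 0.58. Control animal 14 had 76.5 CPM of ISG15 against 7.73 CPM in the next control, and without it the log2 fold change was -0.07. DESeq2 put ISG15 at -0.04. IP6K3 (ENSSSCG00000039272), an inositol phosphate kinase of muscle, stood at -0.93 ± 0.34 and at -0.50 without control animal 10, which had 268 CPM. ABL1 (ENSSSCG00000005706), a tyrosine kinase, stood at -0.90 ± 0.34. KANK3 (ENSSSCG00000013598), an adaptor of the cell cortex, stood at -1.14 ± 0.43. SMIM8 (ENSSSCG00000004300), a small membrane protein, stood at -0.75 ± 0.26, FKBP4 (ENSSSCG00000000743), a co-chaperone of steroid receptors with HSP90, at -0.71 ± 0.28, and TOP3A (ENSSSCG00000035839), a DNA topoisomerase, at -0.61 ± 0.24. Without the low-share samples these 3 stood at -0.54, -0.67 and -0.53. In SMIM8 5 supplemented samples lay under the lowest control, and 4 of them were the low-share samples. ASB6 (ENSSSCG00000005679), a substrate adaptor of a ubiquitin ligase, was named after its values were seen. It was picked because 15 of 16 supplemented samples lay under its lowest control, which no gene tested exceeded. All 4 low-share samples were among these 15. ASB6 had 5.42 to 8.01 CPM in control (median 6.11) and 0 to 5.88 CPM in supplemented muscle (median 3.06). In the edgeR test ASB6 had an unadjusted p of 0.0487 and an adjusted p of 0.978. Its log2 fold change was -0.97 ± 0.49, and the interval of the fit, computed apart from that test, was -1.97 to 0.03 and included 0. Without the low-share samples it was -0.66 ± 0.30.

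The vitamin D pathway was measured from its enzymes to its receptor. VDR had 21 counts over the 8 controls and 43 over the 16 supplemented samples, too few to test. These pooled counts are 0.312 CPM in control (exact Poisson 95% interval 0.193 to 0.476) and 0.316 in supplemented muscle (0.229 to 0.425), and the interval of the supplemented group lay inside that of the controls. VDR had no counts in 4 controls and 8 supplemented samples. Control animal 9 held 8 of its counts and animal 26 held 17, and without the highest sample of each group the levels were 0.218 and 0.215 CPM. CYP27B1, the activating enzyme, had 1 and 9 counts, or 0.0148 (0.000376 to 0.0826) and 0.0661 (0.0302 to 0.1255) CPM. All 9 supplemented counts of CYP27B1 were in animal 29 and the other 15 samples had 0, so these levels say nothing of the diets. The catabolic enzyme CYP24A1, the best-known target of VDR, had 0 counts in every sample. For a count of 0 the exact Poisson 95% interval reaches 0.0547 CPM in control and 0.0271 in supplemented muscle. Taking 3 counts over each group as a floor gives 0.0445 and 0.0220 CPM. These intervals and floors cover counting error only.

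Of the 6 tested genes of vitamin D metabolism and transport, 6 were above 0, with a median of 0.31, against 52.9% of all genes and their median of 0.03. None had an unadjusted p under 0.05. The liver hydroxylase CYP2R1 (ENSSSCG00000013389) stood at 0.91 ± 0.76 (0.23 without the low-share samples, 1.57 without control animal 9), from 0 to 4.65 CPM in control and 0 to 7.61 CPM in supplemented muscle. CYP27A1 (ENSSSCG00000016199), the mitochondrial hydroxylase, stood at 0.20 ± 0.31, with 15.6 to 86.3 CPM and 17.9 to 108 CPM. The carriers ALB (ENSSSCG00000008948) and GC (ENSSSCG00000027609), which the liver secretes, stood at 0.47 ± 0.32 and 0.35 ± 0.35, and GC at 0.68 without control animal 28. PDIA3 (ENSSSCG00000004700), a disulfide isomerase also described as a membrane receptor of the hormone, was at 0.27 ± 0.29, and DHCR7 (ENSSSCG00000021181), which turns the shared precursor into cholesterol, at 0.06 ± 0.35. GC and DHCR7 were named after their values were seen. Without the 4 low-share samples the median was 0.04, and ALB stood at 0.04, GC at 0.11, CYP27A1 at 0.05, DHCR7 at -0.13 and PDIA3 at -0.18 ± 0.24. ALB, GC and CYP27A1 belong to the liver list below as well.

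For each of the receptor's partners the 95% interval included 0. RXRA (ENSSSCG00000038220) had 125 to 206 CPM in control and 101 to 235 CPM in supplemented muscle, at a log2 fold change of 0.06 ± 0.19 with a 95% interval of -0.32 to 0.44. RXRB (ENSSSCG00000001474) was at 0.13 ± 0.36. RXRG (ENSSSCG00000006328), with a control median of 19.9 CPM against 156 CPM for RXRA, was at -0.31 ± 0.40. With each sample left out in turn RXRG stood between -0.48 and -0.03. Including coactivators and corepressors, 14 of 17 tested genes were above 0 with a median of 0.27, and 0 had an unadjusted p under 0.05. The smallest p-values were those of the acetyltransferase CREBBP (ENSSSCG00000007951) at 0.54 ± 0.30 and the corepressor NRIP1 (ENSSSCG00000021038) at 0.68 ± 0.37. Without the low-share samples the median of the 17 was 0.12, CREBBP stood at 0.11 and NRIP1 at 0.12. In 14 of 16 supplemented samples their mean level was above the control mean, and it was highest in animal 7.

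Genes that vitamin D is known to regulate in other cells were 14 of 17 above 0, with a median of 0.18, or 0.12 without the low-share samples and 0.38 without control animal 28. Of these, 2 had an unadjusted p under 0.05, both higher, against 2.25% of all genes: CCN2, described above, and the transcription factor KLF4 (ENSSSCG00000005437) at 1.10 ± 0.48. KLF4 had 0.410 to 5.56 CPM in control (median 1.86) and 0.860 to 9.03 CPM in supplemented muscle (median 5.10), with 5 of 16 samples above every control. CCN2 and KLF4 also belong to lists of matrix and of immediate-early genes.

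**Figure D3:**
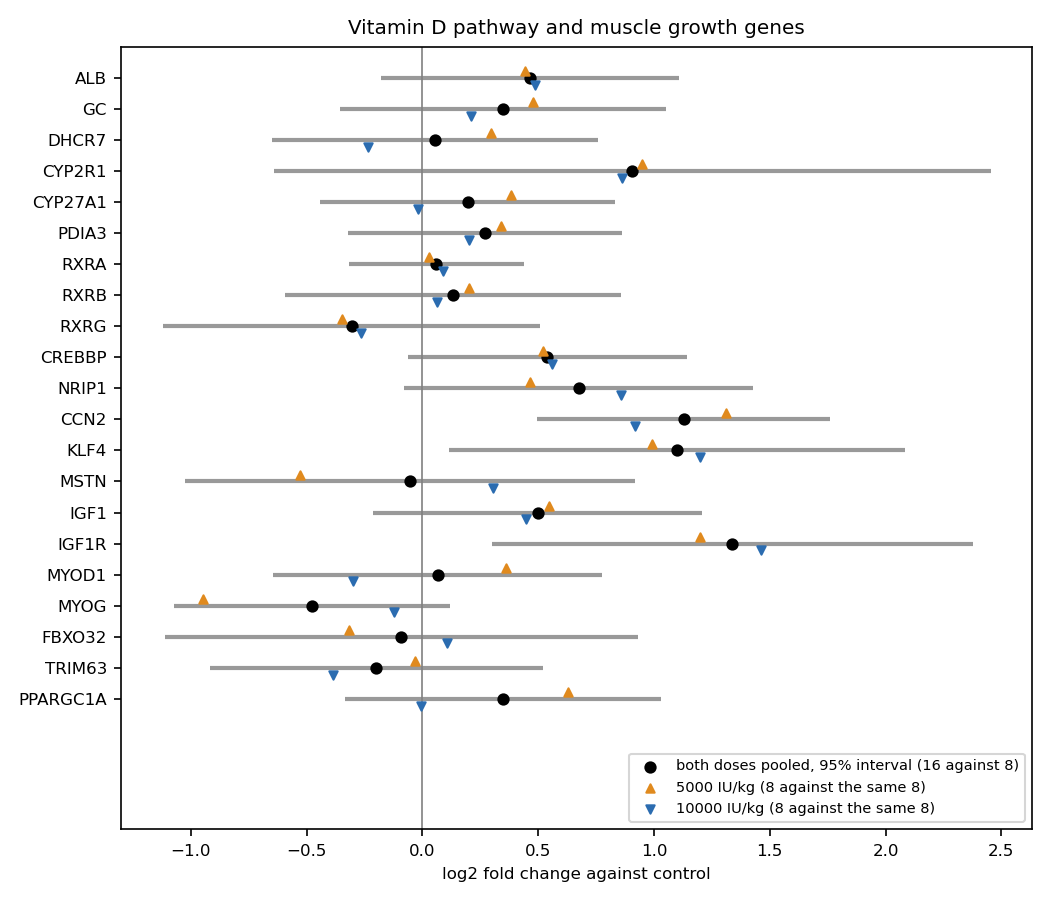
Log2 fold change against the 8 controls (x axis) for 21 genes of the vitamin D pathway and of muscle growth (y axis). Black points and bars are both doses pooled with 95% intervals, and triangles are each dose against the same controls; the intervals of CCN2, KLF4 and IGF1R lie above 0, and those of the other 18 genes include 0.

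The list that stood farthest from 0 was that of immediate-early genes, which cells switch on within minutes of a stimulus. Of 21 tested, 18 were above 0, with a median log2 fold change of 0.58 (0.61 at 5000 and 0.55 at 10000 IU/kg). An unadjusted p under 0.05 was found for 6, all higher, against 2.25% of all genes, and 0 passed the adjusted threshold. The mean log2 CPM of the list ran from 2.66 to 5.04 in control (median 3.72) and from 3.30 to 5.90 in supplemented muscle (median 4.33). The groups overlapped widely, with 2 of 16 samples above the highest control and 14 of 16 above the control mean.

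ATF3 (ENSSSCG00000015595), a stress-induced transcription factor, had 1.17 to 233 CPM in control (median 57.8) and 16.1 to 771 CPM in supplemented muscle (median 126), at a log2 fold change of 1.89 ± 0.63. IER5 (ENSSSCG00000015541), an early response gene, had 30.5 to 232 CPM and 27.7 to 671 CPM, at 1.18 ± 0.46. The other 4 were KLF4, the matricellular CCN1 (ENSSSCG00000006940) at 1.04 ± 0.41, and, named after their values were seen, the phosphatase subunit PPP1R15A (ENSSSCG00000003155) at 1.00 ± 0.40 and the nuclear receptor NR4A2 (ENSSSCG00000015871) at 1.06 ± 0.45. Controls alone spanned a wide range for these genes. The median of the list was 0.46 to 0.76 when each sample was left out in turn, and 0.64 without the 4 low-share samples, where ATF3 stood at 2.16. Without animal 5, the highest in CCN1, that gene stood at 0.69.

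Genes of the mitochondria and of fatty acid use were mostly below 0. Nuclear genes of the respiratory chain and ATP synthase were below 0 in 52 of 58 cases tested, against 47.1% of all genes, with a median of -0.18, and of -0.25 to -0.08 with each sample left out in turn. None had an unadjusted p under 0.05. The complex I subunits NDUFB10 (ENSSSCG00000030328) and NDUFB11 (ENSSSCG00000034487) had the smallest p, at -0.47 ± 0.25 and -0.52 ± 0.28. In NDUFB10 6 of 16 supplemented samples lay under the lowest control, and 4 of these 6 were the low-share samples. Without those 4 NDUFB10 stood at -0.26, NDUFB11 at -0.32 and the median of the list at -0.03. The median was 0.0029 with the assigned share as a covariate and 0.031 with 1 surrogate variable. Of the 13 mitochondrially encoded genes 12 were below 0, with a median of -0.25 (-0.08 at 5000 and -0.46 at 10000 IU/kg), or -0.07 without the low-share samples. The complex I genes ND4 (ENSSSCG00000018087) and ND2 (ENSSSCG00000018069) stood at -0.46 ± 0.29 and -0.51 ± 0.37, and ND2 at -0.21 without control animal 10. In bulk muscle, fewer cells or fibres of a type and less RNA per cell cannot be told apart.

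Fatty acid uptake and oxidation had 18 of 30 tested genes below 0, with a median of -0.22. An unadjusted p under 0.05 was found for 3, all lower, against 0.956% of all genes: FABP3, ANGPTL4 (ENSSSCG00000013599), an inhibitor of lipoprotein lipase, at -0.70 ± 0.29, and, named after its values were seen, the fatty acid transporter SLC27A4 (ENSSSCG00000005648) at -0.91 ± 0.43. ANGPTL4 had 12.7 to 60.3 CPM in control (median 24.0) and 4.49 to 29.9 CPM in supplemented muscle (median 18.8), and 4 of 16 samples lay under the lowest control. In 13 of 16 supplemented samples their mean level was below the control mean, and in 7 it was below the lowest control. Without the low-share samples the median of the list was -0.09, while ANGPTL4 stood at -0.64 and SLC27A4 at -0.81.

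**Figure D4:**
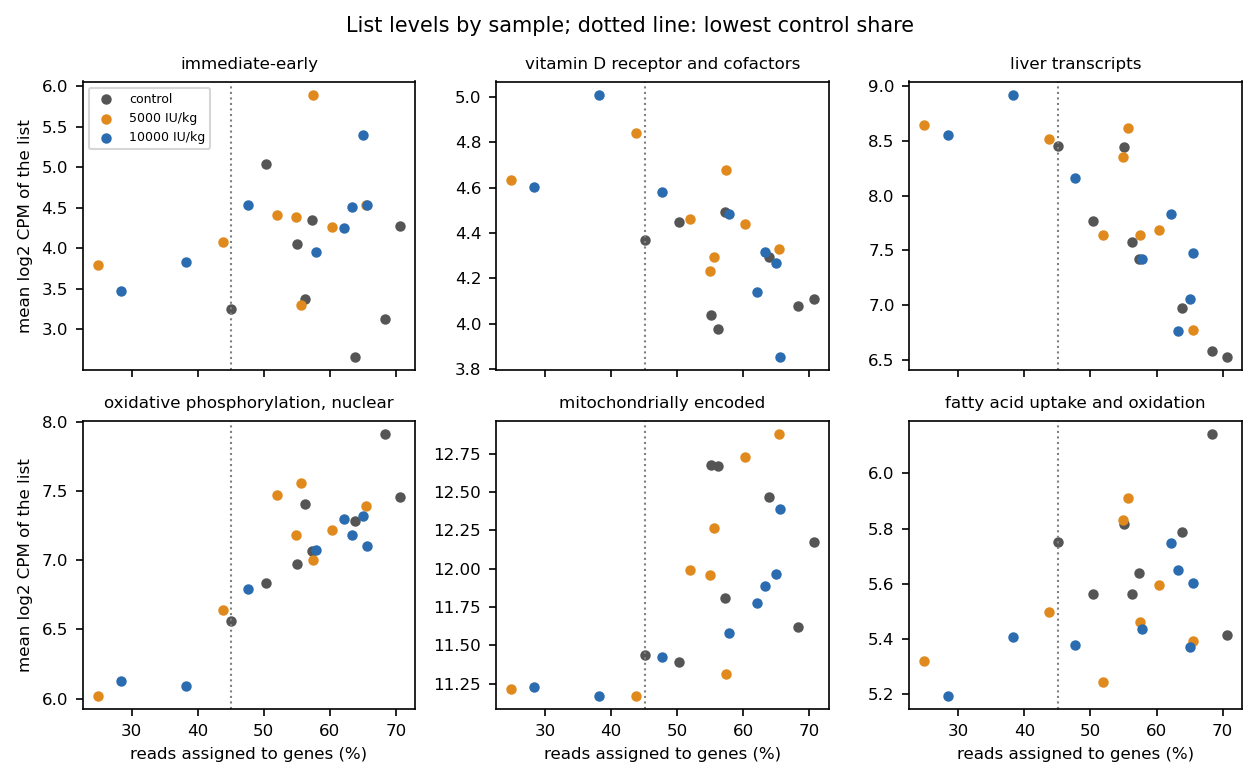
Mean log2 CPM of 6 gene lists (y axis) in each of 24 samples by the share of reads assigned to genes (x axis, %), coloured by diet, with a dotted line at the lowest control share of 45.1%. The 4 supplemented samples left of the line have low levels of both mitochondrial lists and high levels of liver transcripts, while their immediate-early levels lie within the control range.

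Contraction genes of fast fibres were 13 of 16 below 0, with a median of -0.28 and 0 with an unadjusted p under 0.05. TNNI2 (ENSSSCG00000033260), the fast troponin I, had 448 to 9392 CPM in control (median 2671) and 547 to 4538 CPM in supplemented muscle (median 1487), at -0.79 ± 0.42 and at -0.33 without control animal 14, which was the highest. PVALB (ENSSSCG00000000138), a calcium buffer of fast fibres, stood at -0.86 ± 0.46 and at -0.34 without control animal 16, whose value of 362 CPM was the highest. The median of the list was -0.40 to -0.11 with each sample left out in turn and -0.14 without the low-share samples. Calcium handling as a whole stood near 0, with 15 of 35 genes above 0 and a median of -0.08. Its member PPP3CA (ENSSSCG00000009172), the catalytic subunit of calcineurin, was at 0.52 ± 0.22 with 10 of 16 samples above every control and 2 below every control.

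Regulators of muscle growth and breakdown showed no common direction. MSTN (ENSSSCG00000016047), the growth inhibitor myostatin, was at -0.05 ± 0.48, with 1.36 to 18.97 CPM in control and 0.135 to 20.9 CPM in supplemented muscle. The myogenic factors MYOD1 (ENSSSCG00000013375) and MYOG (ENSSSCG00000034654) stood at 0.07 ± 0.35 and -0.48 ± 0.29. MYOG was at -0.95 ± 0.31 at 5000 and -0.12 ± 0.31 at 10000 IU/kg, and 14 of 16 supplemented samples lay under the control median of 92.9 CPM. The growth factor IGF1 (ENSSSCG00000000857) was at 0.50 ± 0.35 and its receptor IGF1R (ENSSSCG00000030560) at 1.34 ± 0.51, but at -0.03 and 0.69 without the low-share samples. IGFBP4 (ENSSSCG00000017472), a binding protein of this factor, stood at 0.55 ± 0.28 and at 0.14 without them. In all, 14 of 25 genes of myogenesis and growth were above 0, with a median of 0.03.

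The atrophy ubiquitin ligases FBXO32 (ENSSSCG00000005981) and TRIM63 (ENSSSCG00000027684) stood at -0.09 ± 0.50 and -0.20 ± 0.35. Of 33 genes of protein degradation and autophagy 16 were above 0, with a median of -0.05. The autophagy receptor SQSTM1 (ENSSSCG00000014016) at -0.56 ± 0.30 and the lysosomal protease CTSD (ENSSSCG00000040793) at -0.44 ± 0.28 had the smallest p. PPARGC1A (ENSSSCG00000029275), which drives mitochondrial biogenesis, was at 0.35 ± 0.34, with 0.63 ± 0.38 at 5000 and -0.01 ± 0.38 at 10000 IU/kg, and the pooled value was 0.13 without animal 25. In glycolysis and glycogen metabolism 13 of 29 genes were above 0, with a median of -0.03. PPP1R3C (ENSSSCG00000010464), which brings a phosphatase to glycogen, stood at 0.80 ± 0.34, and PHKB (ENSSSCG00000002844), a subunit of phosphorylase kinase, at 0.47 ± 0.27.

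The lists of matrix and of fat cells were near all genes in their share above 0 (55.9% and 56.5% against 52.9%). Matrix and fibroblast genes were 19 of 34 above 0 with a median of 0.11. CCN2 and CCN1, already counted in lists above, were the 2 with an unadjusted p under 0.05, both higher, against 2.25% of all genes. Fat-cell and lipogenesis genes were 13 of 23 above 0 with a median of 0.18, or 0.05 without the low-share samples. The lipogenic regulator SREBF1 (ENSSSCG00000033626) was at 0.61 ± 0.26 and the desaturase SCD (ENSSSCG00000010554) at 0.72 ± 0.33. The summed level of the 6 fat-cell markers, ADIPOQ and TRARG1 among them, ran from 25.1 to 141 CPM in control and from 21.2 to 182 CPM in supplemented muscle. LEP, a marker of mature fat cells, had 0 counts in 20 of 24 samples and PLIN1 in 12.

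Immune cell genes were 14 of 20 above 0 with a median of 0.07. CD163 (ENSSSCG00000033146), a receptor of tissue macrophages, stood at 0.66 ± 0.27 with 11.8 to 39.0 CPM in control and 17.5 to 67.4 CPM in supplemented muscle, and at 0.30 ± 0.24 without the low-share samples. CD14 (ENSSSCG00000014369), a monocyte receptor, stood at 0.37 ± 0.31 and at 0.12 without them. The 4 immune markers summed to 47.7 to 288 CPM in control and 59.0 to 470 CPM in supplemented muscle, and their part in the values of IFNGR2 and GZMA was not tested. CD3E, the T-cell marker among them, had 0 counts in 9 of 24 samples. Among interferon-stimulated genes 17 of 24 were above 0 with a median of 0.10, or -0.14 without the low-share samples. Besides ISG15, which was lower, the kinase EIF2AK2 (ENSSSCG00000008496) had an unadjusted p under 0.05, at 0.59 ± 0.28. Of all genes 2.25% were higher and 0.956% lower at that threshold. All 4 low-share samples were above every control in EIF2AK2, and without them it stood at 0.21 ± 0.23.

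Endothelial genes were 5 of 18 above 0 with a median of -0.09, while the guidance receptor ROBO4 (ENSSSCG00000015203) stood at 0.92 ± 0.39 and the transcription factor SOX18 (ENSSSCG00000037865) at 0.63 ± 0.45. Clock genes were 12 of 16 above 0 with a median of 0.22. Among them the repressor BHLHE40 (ENSSSCG00000036136) stood at 0.41 ± 0.27. Heat-shock genes were 10 of 20 above 0 with a median of 0.00. DNAJB4 (ENSSSCG00000003766), a co-chaperone, stood at 0.83 ± 0.32 and the reticulum chaperone HSP90B1 (ENSSSCG00000000849) at 0.36 ± 0.22. All 4 low-share samples were above every control in HSP90B1. Without them HSP90B1 stood at 0.22 and DNAJB4 at 1.01.

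Transcripts of liver were present in every sample. ALB, the albumin gene, had 2106 to 7196 CPM in control and 2557 to 12870 CPM in supplemented samples. Of 24 liver transcripts tested, 24 were above 0, with a median of 0.42 and 0 with an unadjusted p under 0.05. CPS1 (ENSSSCG00000016159), the entry enzyme of the urea cycle, stood at 0.63 ± 0.33 and AMBP (ENSSSCG00000005485), a secreted plasma protein, at 0.64 ± 0.33, and without the low-share samples at 0.07 and 0.29. The list mean was 6.53 to 8.45 log2 CPM in control and 6.76 to 8.92 in supplemented samples, with the highest value in animal 7. Without the 4 low-share samples the median was 0.11. The part of these transcripts in the values of vitamin D metabolism genes, which share 3 of 6 members with the list, was not tested.

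The other 8 lists, on slow fibres, the TCA cycle, smooth muscle, blood, nerve, ribosomal proteins, antioxidant enzymes and lung, had medians of -0.39 to 0.33 and 0 members with an unadjusted p under 0.05.

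**Figure D5:**
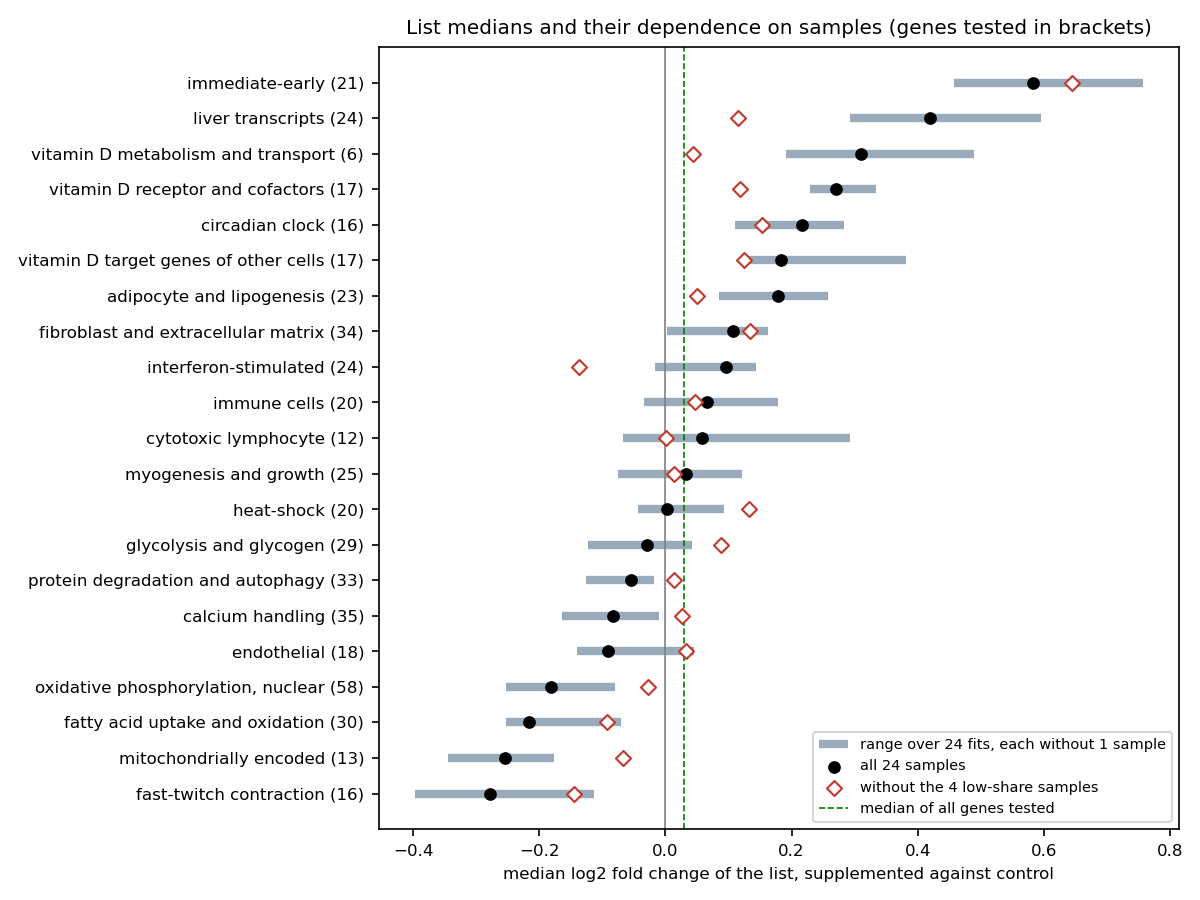
Median log2 fold change of the supplemented against the control group (x axis) for 21 gene lists (y axis, genes tested in brackets). Black points use all 24 samples, bars span the fits that leave out 1 sample each and diamonds leave out the 4 low-share samples; immediate-early genes stay at 0.46 to 0.76, while the liver median goes from 0.42 to 0.11 and that of oxidative phosphorylation from -0.18 to -0.03.

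Returning animal 27 to the pool left the count of called genes at 0, with 283 genes at an unadjusted p under 0.05 in edgeR. The median of the fat-cell list was then 0.71 in place of 0.18, and that of matrix genes 0.40 in place of 0.11. Its 6 fat-cell markers, which include the selecting genes ADIPOQ and TRARG1, summed to 8849 CPM, and ACTA1 held 1.00% of its counts. For FABP3 the log2 fold change was -0.74 with it, for SCD 2.24, and for IFNGR2 and GZMA (ENSSSCG00000016903) 1.502 and 2.31.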

How the data were processed

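RNA from 25 muscle samples was made into Lexogen QuantSeq 3' FWD libraries, per the labels' protocols. The authors deposited whole-number counts of reads per gene for each sample, 1 file per pig, and FastQC is named in the submitters' processing notes. The aligner, the counting tool and the genome build are not given in the sources used here. In each file the closing lines, which count reads outside genes, ambiguous reads and reads at several places, were kept out of the gene totals and used only for the library measures. Of 25880 gene identifiers, 14856 had a symbol.

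Genes were kept by edgeR's filterByExpr (minimum count 10, minimum total 15), counts were scaled by TMM, and 16 supplemented samples were tested against 8 controls with edgeR's quasi-likelihood test (glmQLFit and glmQLFTest) with Benjamini-Hochberg adjustment over the 10876 genes and a threshold of 0.05. SE and 95% intervals come from that fit, CPM of single tested genes are counts per 1000000 scaled by TMM, and log2 CPM used a prior count of 2. Summed marker levels, the ACTA1 share and the pooled levels of VDR, CYP27B1 and CYP24A1 were taken over gene totals without TMM. They are therefore on another scale than the CPM of single tested genes. The doses were compared with each other, and each with control, in a fit of 3 diets. Library measures were compared with exact permutation tests over all 735471 splits. The pigs are separate animals, but litters are not in the labels, so littermates could not be paired and p-values treat all pigs as independent.

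The text names the 12 genes with a symbol and the smallest p in each direction, the 2 members with the smallest p of each list it describes, a fixed group of vitamin D and growth genes, and others where it says so; a gene that this rule names is not reported here. These members, the 29 gene lists and the removal of animal 27 were chosen with earlier results of these data known. Lists are described by counts and medians, with no test. Alternatives were other scalings, filters, tools, covariates, left-out samples and animal 27 included; leaving out the 4 low-share samples, or the sample with most VDR or CYP27B1 counts, was added after seeing the data. The fits were tested on simulated counts. R 4.3.3, edgeR 4.0.16, limma 3.58.1, DESeq2 1.42.0, sva 3.50.0, Python 3.11.15, scipy 1.17.1 and matplotlib 3.10.9 were used.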

Additional observations from a re-analysis of the deposited data

Results flagged for a closer look

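Among 106 quantities checked over the 8 controls, 4 had a control whose gap to the nearest other was large against the group's range, and chance gives such a sample in about 1 in 20 groups. For single genes the gap and the range were taken on a log2 scale, while their values below are in plain CPM. Control animal 16 had the highest mean of the heat-shock list, 7.53 log2 CPM against 7.19 in the next, and the lowest NOCT, 2.77 CPM against 5.26. Control animal 14 had 76.5 CPM of ISG15 against 7.73 in the next. Control animal 10 had 0.164 CPM of IGF1R against 1.81 in the next.

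Animal 27, left out of the comparison, stood apart in the values it was selected on: 15866 counts of ADIPOQ against 441 in the next sample at 10000 IU/kg, and 60164 counts of TRARG1 against 209. Its 6 fat-cell markers summed to 8849 CPM against a highest control sum of 141 CPM, but ADIPOQ and TRARG1 gave 1234 and 4680 CPM of this sum. The markers not used in the choice were FABP4 at 1944 CPM (highest control 102), CIDEC at 805 (12.5), PLIN1 at 102 (2.57) and LEP at 83.9 (2.11).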

How the results depend on the processing

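No setting called a gene between supplemented and control muscle or between the doses. Against 245 genes higher and 104 lower at an unadjusted p under 0.05 there were 1080 and 627 without the filter on low counts, where the dose comparison had 1496 in place of 220. There were 106 and 60 with a covariate for the assigned share and 96 and 38 with 1 surrogate variable, 112 were higher without the 4 low-share samples, and voom had 310 lower. With each sample left out in turn there were 123 to 366 higher and 47 to 187 lower, both lowest without control animal 16. The causes were not tested. Of the log2 fold changes of named genes, 20 turned sign under another setting (835 did not) and 18 with a sample left out (1854 did not). With the surrogate variable ALB stood at -0.016, GZMA ENSSSCG00000016902 at -0.025, IGF1 at -0.040, PDIA3 at -0.12, RXRG at 0.00067, MYOD1 at -0.038, MSTN at 0.027, CYP27A1 at -0.042, TRIM63 at 0.044 and DHCR7 at -0.20. Without the low-share samples IGF1 stood at -0.029, PDIA3 at -0.18, FBXO32 at 0.22, MYOD1 at -0.0098, TRIM63 at 0.078 and DHCR7 at -0.13. With the covariate PDIA3 was at -0.031 and DHCR7 at -0.10, FBXO32 was at 0.23 in voom, and MYOD1 at -0.035 with animal 27. Leaving out single samples put FBXO32 between -0.30 and 0.41, MYOD1 between -0.089 and 0.40, MSTN between -0.22 and 0.23 and DHCR7 between -0.10 and 0.23. Without the low-share samples the library differences, supplemented minus control, were 0.586 points in assigned reads, -0.560 in reads outside genes, -0.0404 in reads at several places, 1.73 in the share of the top 10 genes, and 105.0 in genes detected. Those samples were picked on their assigned share and from the supplemented group only, which by itself raises that group's mean share. No paired analysis was possible because the labels give the groups no shared replicate numbers and no litters. VDR, CYP27B1 and CYP24A1 had too few counts to be tested, and the part of depth in this was not tested.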
